A study of Mus musculus with 64 samples.

Results

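The response of mouse bone marrow-derived macrophages to 8 h of interferon-beta (IFN-beta), a type I interferon, was described here. It was chosen by its labels, as the 2 arrays of BALB/c cells given IFN-beta at 10 U/ml for 8 h set against the 2 arrays of BALB/c cells collected at 0 h. A pair of arrays at 4 h of IFN-beta was used only to check directions, so that 6 of the 64 arrays of the series enter these comparisons. The same 8 h arrays were then set against IFN-beta at 2 h and 24 h, against IFN-gamma at 10 U/ml for 8 h, and against lipopolysaccharide (LPS) at 5 ng/ml for 8 h, all in BALB/c cells and with 2 arrays each. Macrophages were grown from the femurs of male mice aged 7 to 8 weeks, seeded on day 6 at 200000 cells per well with CSF1, the growth factor of this lineage, at 10000 U/ml, and treated on day 7. All groups, the 0 h control included, received CSF1, and the labels name no engineered allele. Each array held 250 ng of RNA from 1 of 2 separate wells of its group.

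Type I interferons bind a receptor of the chains Ifnar1 and Ifnar2, whose kinases Jak1 and Tyk2 activate transcription factors. The complex ISGF3, which holds Stat2 and Irf9, binds the interferon-stimulated response element (ISRE) in the promoters of many antiviral genes. In macrophages the same signal is known to raise antigen presentation and chemokines, and it is held in check by proteins such as Usp18 and Socs1.

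No untreated wells at later times were analysed here, so time in culture and IFN-beta cannot be told apart in a change from 0 h. The wells of a group are separate cultures, but nothing says that they came from separate mice. The p-values therefore measure only the spread between wells, pooled over all 32 groups of the series. In RNA from whole wells, fewer cells of a kind and less RNA per cell cannot be told apart. Arrays of the series fell into a larger technical batch of 53 and a smaller of 11, parted by the first component (11.4% of variance) of the replicate deviations in probe sets that have no gene. The wells at 0 h and 8 h all lay in the larger batch, as did those of IFN-gamma and LPS at 8 h, while both 4 h wells lay in the smaller. Some groups, IFN-beta at 24 h among them, had 1 well in each batch, and the pooled spread holds that difference too. With 2 arrays a group the precision of each value is limited, and array medians ran from 25.6 to 29 intensity units.

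The cells had the transcripts that define macrophages at both times. Csf1r, Adgre1, Cd68, Lyz2 and Spi1 lay at or above percentile 98.7 of all genes at 0 h and 8 h. Itgam stood at percentile 97.4 at 0 h and 95.7 at 8 h, Cd14, the LPS co-receptor, at 97.4 and 95.2, and Mertk, which clears dead cells, at 81.9 and 72.5. The high-affinity IgG receptor Fcgr1 stood at 79.5 and 98.2. Replicate wells were close, with a median absolute difference over genes of 0.106 log2 units at 0 h and 0.113 at 8 h.

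After 8 h of IFN-beta 427 of 18820 genes were higher and 305 were lower than at 0 h, by limma with an adjusted p under 0.05 and an absolute log2 change of at least 1. These were 2.27% and 1.62% of all genes tested, 3.89% together. The counts for gene lists below are to be read against these shares. Rises were larger than falls. The median change was 1.55 log2 units among the genes that rose and -1.18 among those that fell. Of the genes that rose, 135 gained at least 2 log2 units, 60 at least 3 and 28 at least 4, whereas 3 of the genes that fell, Uck2, Bank1 and Dctd, lost 2 or more. The 8 h wells lay beyond both 0 h wells for all 427 and all 305. With replicate wells this close, the minimum change nearly fixes that outcome, so it adds no support to the calls. At 0 h 26 of the genes that rose were under 4.19 log2 units, the level that 40% of all values fall below. Of the genes that fell 4 ended below that level, D16Ertd472e, Gal3st2c, Serpinb10 and Trem1. The histone gene H4c3 fell by 1.25 ± 0.30 although its 8 h wells, at 7.29 and 6.25, were over 1 log2 unit apart. These 5 were singled out after their values were seen. With each array centred on its median, 488 genes were higher and 220 lower, so that 68.9% of the calls were rises in place of 58.3%.

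**Figure D1:**
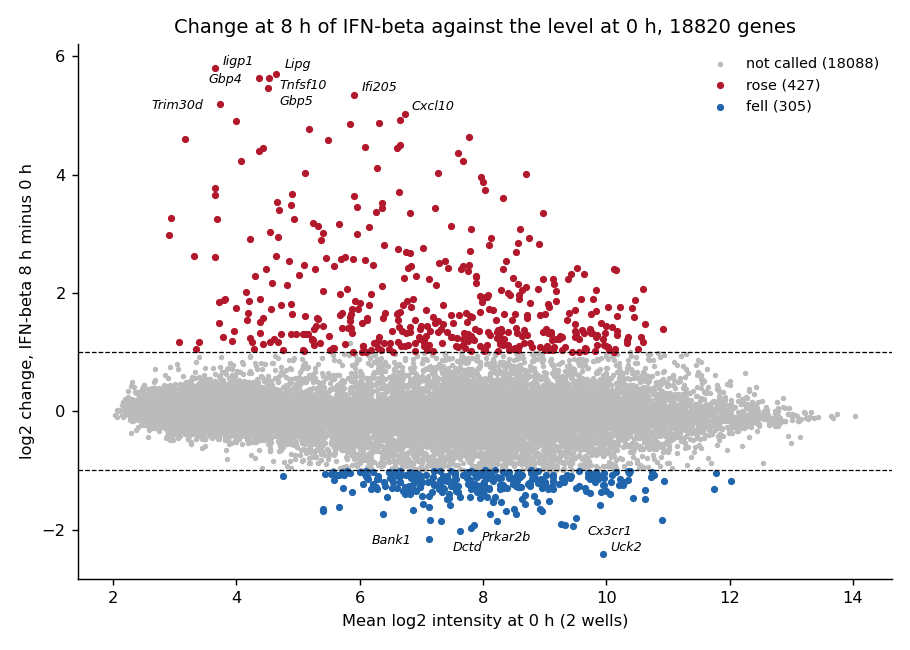
Change in log2 intensity from 0 h to 8 h of IFN-beta (vertical axis) against the mean log2 intensity of the 2 wells at 0 h (horizontal axis), 1 point per gene, with dashed lines at a change of 1 in each direction. The 427 genes that rose reach changes above 5, while the 305 that fell reach -2.42.

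The genes with the largest rises encode interferon-induced GTPases, a lipase, a death ligand and a chemokine. All values below are log2 intensities of single wells, replicate 1 first, or log2 changes ± SE between the means of 2 wells per group, with adjusted p from limma over 18820 genes. Iigp1, an immunity-related GTPase, stood at 4.06 and 3.27 at 0 h and at 9.46 and 9.48 at 8 h, a change of 5.80 ± 0.45 (55.8-fold, adjusted p = 6.9e-13). Both 0 h wells were below the dim level of 4.19, so the fold rests on faint signals. Lipg, endothelial lipase, read 4.67 and 4.62 at 0 h and 10.40 and 10.30 at 8 h, a change of 5.71 ± 0.25 (52.2-fold, adjusted p = 2.3e-19). The guanylate-binding GTPase Gbp4 went from 4.65 and 4.10 to 10.06 and 9.97 (5.64 ± 0.33, adjusted p = 3.7e-16), and its relative Gbp5 from 4.40 and 4.64 to 10.00 and 9.95 (5.46 ± 0.41, adjusted p = 3.1e-13). Tnfsf10, which encodes the death ligand TRAIL, was at 4.84 and 4.22 and then at 10.19 and 10.15 (5.64 ± 0.37, adjusted p = 3.9e-15). In each of these genes the 0 h wells lay at least 4 log2 units under the 8 h wells.

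The next of the 15 largest rises were at similar heights. The PYHIN family gene Ifi205, a candidate DNA sensor, read 6.14 and 5.67 at 0 h and 11.28 and 11.25 at 8 h (5.35 ± 0.48, adjusted p = 1.7e-11). Trim30d, of the TRIM family, read 3.44 and 4.02, then 8.90 and 8.96 (5.20 ± 0.32, adjusted p = 1.2e-15). Cxcl10, a chemokine for activated T cells, read 6.64 and 6.82, then 11.75 and 11.77 (5.03 ± 0.26, adjusted p = 7.1e-18). These genes reached the upper range of the array from faint or moderate starts. The membrane protein gene Ms4a4c rose by 4.93 ± 0.56 from 6.66 and 6.65 to 11.60 and 11.58. Ifit3b, Mx1, Ifi209, Ifit2, Ifi214 and Fgl2, a fibrinogen-like gene, followed with changes between 4.59 and 4.91. Probes of near-identical members of the Gbp, Ifi200, Ifit, Slfn and Trim30 families may share signal, so single members of these families are less certain than the family.

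**Figure D2:**
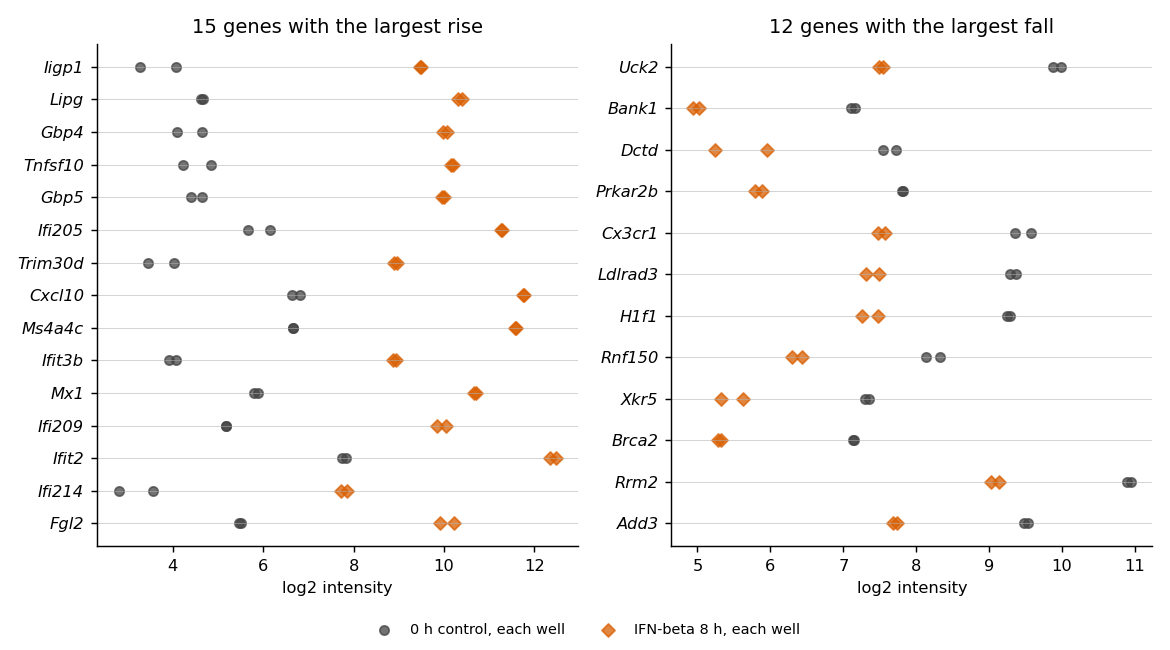
Log2 intensity of each well at 0 h (grey circles) and at 8 h of IFN-beta (orange diamonds) for the 15 genes with the largest rise (left) and the 12 with the largest fall (right). In every gene shown the 2 wells of a group lie closer to each other than to the other group, and the genes were chosen from those without overlap.

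Promoters of the genes that rose were read from RefSeq (GRCm38.p6) to see whether they share a sequence that the choice of genes did not use. The window ran from 250 bases before to 50 after each transcript start, and 328 of the 427 genes had 1 or more entries. Shown are the 4 most risen named genes with an ISRE core, which is GAAA, any 2 bases and GAAA on either strand, and then 2 without one. Capitals mark the core, and sequences run 5′ to 3′ on the strand of the gene. Iigp1, Lipg, Gbp4 and Mx1 had no entry.
Gbp5, chr3:142496684-142496933, plus strand: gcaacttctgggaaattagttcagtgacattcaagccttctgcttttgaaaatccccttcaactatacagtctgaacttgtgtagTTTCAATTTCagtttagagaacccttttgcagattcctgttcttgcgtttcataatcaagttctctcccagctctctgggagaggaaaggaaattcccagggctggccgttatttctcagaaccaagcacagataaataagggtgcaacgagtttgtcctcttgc
Ifi205, chr1:174031756-174031905, minus strand: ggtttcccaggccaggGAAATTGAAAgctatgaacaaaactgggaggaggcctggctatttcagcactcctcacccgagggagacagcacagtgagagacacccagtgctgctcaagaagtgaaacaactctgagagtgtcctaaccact
Trim30d, chr7:104507850-104507999, minus strand: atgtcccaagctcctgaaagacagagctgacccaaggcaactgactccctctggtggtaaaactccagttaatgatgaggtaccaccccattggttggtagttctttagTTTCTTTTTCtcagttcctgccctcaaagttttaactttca
Cxcl10, chr5:92348890-92349139, minus strand: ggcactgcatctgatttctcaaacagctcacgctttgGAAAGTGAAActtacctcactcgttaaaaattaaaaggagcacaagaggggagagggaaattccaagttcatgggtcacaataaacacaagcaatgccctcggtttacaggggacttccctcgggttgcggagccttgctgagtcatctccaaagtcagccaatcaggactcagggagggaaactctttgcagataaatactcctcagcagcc
Tnfsf10, chr3:27316927-27317076, plus strand, no core: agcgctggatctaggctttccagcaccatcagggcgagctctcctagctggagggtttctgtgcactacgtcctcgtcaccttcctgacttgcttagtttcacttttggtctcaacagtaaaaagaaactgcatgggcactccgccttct
Ms4a4c, chr19:11407511-11407660, plus strand, no core: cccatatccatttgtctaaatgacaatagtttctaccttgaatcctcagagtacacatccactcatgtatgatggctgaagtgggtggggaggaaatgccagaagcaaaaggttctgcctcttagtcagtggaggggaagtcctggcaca
In the 4 stretches with a core its first base lay at -165 from the transcript start in Gbp5, -134 in Ifi205, -41 in Trim30d and -213 in Cxcl10. In Ifi205 a core was also found at 24, outside the stretch shown.

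The ISRE core was found in 1131 of 32851 promoters of the whole table, or 3.44%, and in 3.27% of the promoters of all genes tested. It was in 64 of 416 promoters of genes that rose, or 15.4%. The share was higher among stronger responders, at 10.2% for rises under 2 log2 units, 29.2% for rises of 2 or more and 59.1%, or 13 of 22 promoters, for rises of 4 or more. Among promoters of genes that fell it was 5.21%. The GAS letters TTCNNNGAA, bound by STAT dimers, were in 9.86% of the promoters of risen genes and 4.23% of those of fallen genes. Over all genes tested the share was 7.71%. The E2F letters TTTNGCGC were in 6.19% of the promoters of fallen genes, 1.44% of risen and 1.85% of all genes tested. A kB site, GGGA, any base and TTTCC, was in 0.962%, 0.326% and 0.446% of the promoters of risen, fallen and all tested genes. CCAAT was in 33.7%, 43.6% and 37.5%, in the same order. All motifs were searched on both strands, a core may overlap another motif, and a match is a description of letters, not a binding site.

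Of the receptor, its kinases and ISGF3, 1 of 6 measured genes rose. Stat2 stood at 9.58 and 9.70 at 0 h and at 11.91 and 12.02 at 8 h, a change of 2.33 ± 0.24 (adjusted p = 4.4e-10). The kinase Tyk2 differed by 0.98 ± 0.18 and Irf9 by 0.69 ± 0.12, both under the minimum change. With centred arrays, or without replicate 1 at 0 h, 2 of the 6 rose. The receptor chains read 0.08 for Ifnar1 and 0.04 for Ifnar2. The list's median of 0.47 compares with -0.02 over all genes.

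Of 9 feedback inhibitors 2 rose at 8 h, with a list median of 0.27. Usp18, the protease that removes Isg15 from proteins and blocks the receptor, went from 10.14 and 10.16 to 12.47 and 12.62 (2.39 ± 0.27, adjusted p = 5.2e-09). Socs1, an inhibitor of JAK kinases, went from 5.47 and 5.68 to 6.64 and 6.66 (1.07 ± 0.25, adjusted p = 0.0015), and its change was 0.97, under the minimum, without replicate 1 at 0 h. Its relative Socs3 differed by -0.10. Among 15 other STAT and IRF factors 4 rose and 1 fell. Batf2, a partner of Irf1, rose by 3.12 ± 0.30, Irf7 by 2.07 ± 0.34, Irf1 by 1.96 ± 0.12 and Stat3 by 1.04 ± 0.10, the last at 0.97, under the minimum, with quantile normalisation. Stat4 changed by -1.06 ± 0.14, a call lost with centred arrays (-0.97), with quantile normalisation (-0.98) and without replicate 1 at 0 h (-0.96).

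Antiviral effectors rose in 26 of 32 cases, with a median change of 1.87. Ifit1, which binds foreign RNA caps, read 6.44 and 6.89 at 0 h and 11.19 and 11.16 at 8 h (4.51 ± 0.40), and Ifit2 read 7.82 and 7.75, then 12.34 and 12.48 (4.63 ± 0.43). The dynamin-like GTPase Mx1 read 5.79 and 5.89, then 10.71 and 10.67 (4.85 ± 0.40), and Mx2 gained 4.03 ± 0.33. In none of these genes did the groups come within 3 log2 units of each other. Rsad2, or viperin, gained 4.02 ± 0.41 and the nuclease Isg20 3.97 ± 0.41. Members of the oligoadenylate synthetase family gained between 1.60 (Oasl2) and 2.93 (Oasl1). The RNA-activated kinase gene Eif2ak2 rose by 1.85 ± 0.20 and the RNA editor Adar by 1.76 ± 0.15. The 6 members not called include Ifi27, which differed by -0.61 ± 0.14.

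Of the 6 genes of conjugation by Isg15, a ubiquitin-like modifier, 4 rose. Isg15 itself went from 4.56 and 4.31 to 8.91 and 8.86 (4.45 ± 0.36, adjusted p = 1.9e-12). Its ligase Herc6 rose by 2.93 ± 0.23, its activating enzyme Uba7 by 1.93 ± 0.17 and its conjugating enzyme Ube2l6 by 1.23 ± 0.17.

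The list of nucleic acid sensors and adaptors also holds other genes, namely Tlr2, Tlr4, Nod1, Nod2 and Lgals3bp. Of its 23 measured genes 13 rose (median 1.22). The DNA sensor Zbp1 went from 7.29 and 7.25 to 11.26 and 11.35 (4.03 ± 0.37), and Ifi209 from 5.18 in both wells to 10.04 and 9.85 (4.77 ± 0.39). All 3 cytosolic RNA helicases of the RIG-I kind rose, Ifih1 by 2.84 ± 0.17, Dhx58 by 2.07 ± 0.11 and Ddx58 by 2.06 ± 0.16. The endosomal receptors Tlr9 (2.81 ± 0.28), Tlr3 (2.28 ± 0.14), Tlr7 (1.22 ± 0.12) and Tlr8 (1.11 ± 0.13) rose as well. The adaptors Sting1, Myd88 and Ticam1 differed by 0.84 to 0.87, under the minimum change.

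Guanylate-binding and immunity-related GTPases, which attack the vacuoles of intracellular microbes, rose in 9 of 9 measured cases, with a median of 4.37. The smallest rise was 2.41 ± 0.30 for Gbp8, whose 8 h wells were apart at 6.58 and 7.20. Irgm1 rose by 2.42 ± 0.21 from 9.50 and 9.54, the highest start of the list. All 6 measured Schlafens rose (median 2.43), from 1.13 ± 0.16 for Slfn2 to 4.23 ± 0.58 for Slfn1, which went from 4.05 and 4.10 to 8.24 and 8.37. Of the TRIM ubiquitin ligases 7 of 12 rose (median 1.44), with Trim21, Trim14 and Trim12c between 1.57 and 1.65 behind Trim30d. Of the PARP family of ADP-ribosyltransferases 4 of 7 rose (median 1.28), namely Parp11 (2.76 ± 0.21), Parp14 (2.24 ± 0.18), Parp12 (1.88 ± 0.12) and Parp3 (1.28 ± 0.10).

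Antigen presentation split by class. Of 18 genes of MHC class I processing 10 rose (median 1.19). The chaperone gene Tapbpl went from 7.41 and 7.35 to 9.87 and 9.97 (2.54 ± 0.11, adjusted p = 2.3e-19). The class I transactivator Nlrc5 rose by 2.23 ± 0.20, the peptide transporter chains Tap1 by 1.90 ± 0.12 and Tap2 by 2.05 ± 0.15, and the immunoproteasome subunits Psmb10, Psmb9 and Psmb8 by 2.23, 1.30 and 1.26. Of 9 MHC class II genes only Ciita, the class II transactivator, was called (median 0.25). Ciita went from 5.02 and 5.14 to 6.12 and 6.10 (1.03 ± 0.21), and its change was 0.97 without replicate 1 at 0 h. The class II chains H2-Aa, H2-Ab1 and H2-Eb1 differed by 0.19, 0.38 and 0.25, with adjusted p of 0.47, 0.29 and 0.24.

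Among 21 chemokines 7 rose, and the list's median was 0.27. The 3 ligands of Cxcr3, the receptor of activated T cells, all rose, Cxcl10 as above, Cxcl9 from 3.55 and 3.77 to 7.33 and 7.30 (3.65 ± 0.43), and Cxcl11 from 5.25 and 5.40 to 8.48 and 8.44 (3.14 ± 0.21). Ccl5 rose from 7.16 and 7.30 to 10.74 and 10.59 (3.44 ± 0.78), Ccl12 by 2.63 ± 0.24, Ccl8 by 2.17 ± 0.27 and Ccl4 by 1.14 ± 0.19. The neutrophil chemokines differed by -0.08 for Cxcl1, -0.87 ± 0.73 for Cxcl2 (adjusted p = 0.54) and 0.10 for Cxcl3. Of 11 chemoattractant receptors 1 rose and 2 fell. Ccrl2, which binds chemerin, rose by 2.17 ± 0.17. The complement receptor C5ar1 fell from 10.07 and 9.74 to 8.55 and 8.53 (-1.36 ± 0.13), and the fractalkine receptor Cx3cr1 from 9.57 and 9.36 to 7.48 and 7.57 (-1.94 ± 0.13, adjusted p = 2.4e-14).

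Cytokine genes rose in 8 of 24 cases, with a median of 0.06. Beside Tnfsf10 these were Il18bp (2.56 ± 0.21), which neutralises IL-18, and Il18 itself (1.54 ± 0.19), Il15 (1.51 ± 0.16) and its receptor chain Il15ra (1.84 ± 0.23), Csf1 (1.63 ± 0.16), Il27 (1.44 ± 0.28) and the IL-1 receptor antagonist Il1rn (1.20 ± 0.16). The inflammatory cytokines were not called, with differences of 0.01 ± 0.56 for Il6, -0.06 ± 0.93 for Il1b, -0.10 ± 0.31 for Il12b and 0.62 ± 0.14 for Tnf. Of 23 surface and co-stimulatory molecules 10 rose (median 0.68). Cd40, the receptor for T cell help, went from 6.21 and 6.37 to 10.42 and 10.40 (4.12 ± 0.25), the T cell co-stimulator Cd86 from 5.99 and 5.93 to 9.43 and 9.39 (3.45 ± 0.17), and the activation antigen Cd69 from 4.95 and 4.87 to 8.71 and 8.48 (3.68 ± 0.21). Cd274, which encodes the checkpoint ligand PD-L1, rose by 2.15 ± 0.20.

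Genes of cell death rose in 6 of 22 cases and fell in 1. Those that rose were Daxx (2.38 ± 0.14), Xaf1 (2.27 ± 0.20), the necroptosis effector Mlkl (1.97 ± 0.16), and the pyroptosis genes Casp4 (1.96 ± 0.13), Casp1 (1.65 ± 0.23) and Gsdmd (1.30 ± 0.12). The survival gene Bcl2 fell by 1.38 log2 units, from 9.68 and 9.79 to 8.28 and 8.42. Of 16 genes of NF-kB feedback 2 rose and 1 fell, with Nfkbie at 1.34 ± 0.19, Zfp36 at 1.05 ± 0.11 and Irak3 at -1.01 ± 0.13. Zfp36 was at 0.97 without replicate 2 at 0 h. Irak3 was at -0.92 with centred arrays, just short of the minimum with quantile normalisation and at -0.89 without replicate 1 at 8 h, so that the list had 3 rises and no fall under these settings. Of 23 immediate early genes 1, Fos, was called, from 6.62 and 6.70 to 8.29 and 8.38 (1.68 ± 0.23). That was 4.35% of the list, near the 3.89% of all genes called in either direction, so the count says nothing about the list.

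Effector enzymes rose in 6 of 22 cases and fell in 1, or in 2 without replicate 2 at 8 h. Nos2, the inducible nitric oxide synthase, read 3.54 and 3.78 at 0 h and 7.66 and 7.23 at 8 h (3.78 ± 0.86, adjusted p = 0.00099). Its SE, like that of every other gene, comes from the spread within all 32 groups of the series. The collagenase gene Mmp13 rose by 3.74 ± 0.19, and Acod1, which makes itaconate, went from 8.40 and 8.27 to 11.95 and 11.92 (3.61 ± 0.27). Kynu, of tryptophan breakdown, rose by 2.02 ± 0.23, and the leukotriene enzyme gene Alox5 changed by -1.23 ± 0.14. Of 27 macrophage identity genes 2 rose, both IgG receptors, Fcgr1 (2.83 ± 0.16) and Fcgr4 (2.10 ± 0.17), and the list's median was -0.07. The 2 made up 7.41% of the list, against 2.27% of all genes. Of 22 genes of cholesterol synthesis and export limma called 0, with 3 higher and 4 lower at an unadjusted p under 0.05, a rule met by 11.3% of all genes as higher and 16% as lower. The 2 with the largest differences were the liver X receptor Nr1h3 (0.95 ± 0.13), which reached 1.05 with centred arrays, and the exporter Abcg1 (0.72 ± 0.12). Of 17 genes of the glycolysis list 1, the prolyl hydroxylase gene Egln3, was called (-1.08 ± 0.21). It was at -0.77 without replicate 1 at 8 h and at -0.98 with centred arrays. A single call is 5.88% of that list, against 3.89% of all genes called in either direction.

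**Figure D3:**
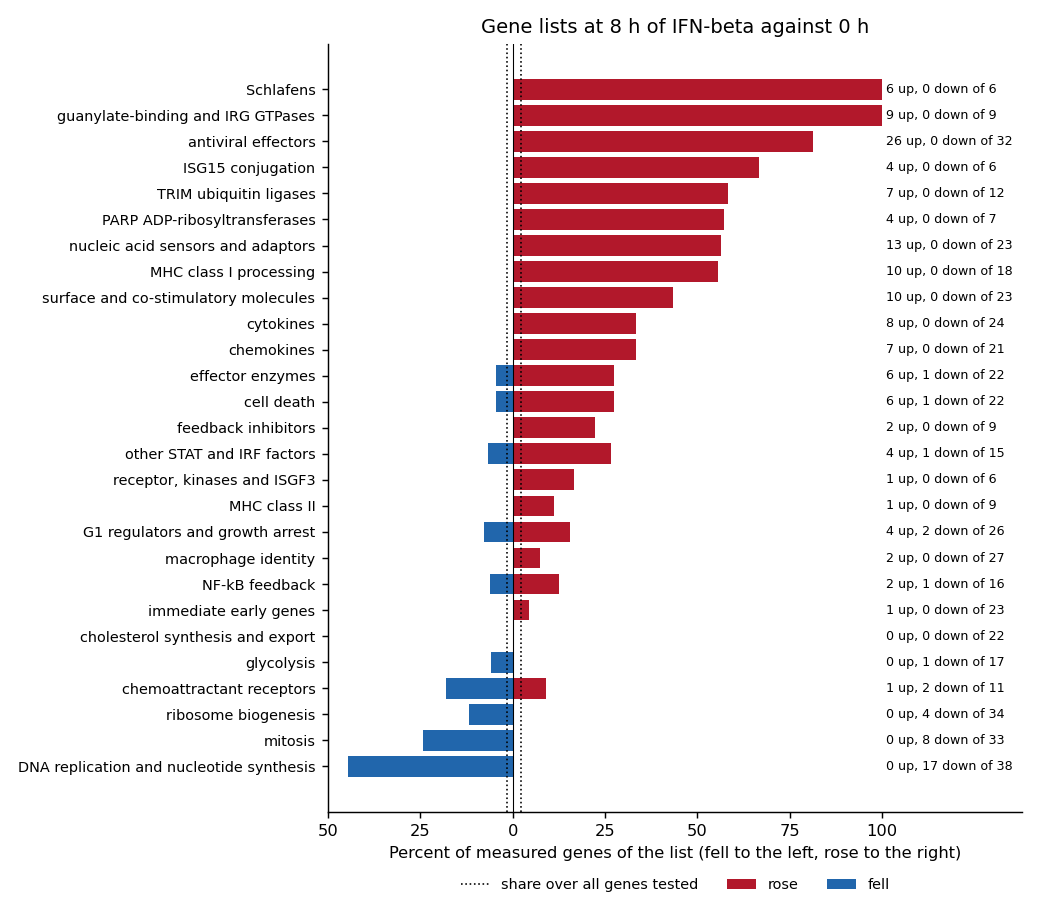
Percent of the measured genes of each list that rose (red, right of 0) or fell (blue, left of 0) at 8 h of IFN-beta against 0 h, with dotted lines at the shares over all genes, 2.27% and 1.62%. Schlafens and GTPases rose throughout, and 44.7% of the genes of DNA replication and nucleotide synthesis fell.

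The 12 largest falls included genes of nucleotide synthesis and DNA repair beside genes of other roles. Uck2, a kinase that salvages uridine and cytidine, fell from 9.99 and 9.88 to 7.49 and 7.54 (-2.42 ± 0.12, 5.35-fold lower, adjusted p = 5.3e-18). Dctd, which makes dUMP, fell from 7.72 and 7.55 to 5.24 and 5.96 (-2.03 ± 0.19, adjusted p = 1.1e-10), and Rrm2, a subunit of ribonucleotide reductase, from 10.94 and 10.89 to 9.03 and 9.14 (-1.83 ± 0.22, adjusted p = 1.9e-08). The 8 h wells of Dctd lay further apart than those of Uck2 and Rrm2, and all were under the 0 h wells. Brca2, of DNA repair, went from 7.13 and 7.15 to 5.28 and 5.32 (-1.84 ± 0.17), and the linker histone gene H1f1 from 9.25 and 9.28 to 7.47 and 7.25 (-1.90 ± 0.15). Other genes among the 12 largest falls were the signalling scaffold gene Bank1 (-2.15 ± 0.13), the protein kinase A subunit Prkar2b (-1.97 ± 0.19), Ldlrad3 (-1.93 ± 0.16), Rnf150 (-1.86 ± 0.18), Xkr5 (-1.85 ± 0.23) and the cytoskeletal gene Add3 (-1.80 ± 0.09).

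Among 38 genes of DNA replication and nucleotide synthesis 17 fell, 44.7% against 1.62% of all genes, with a median of -0.91. They include the helicase subunits Mcm2, Mcm3, Mcm4 and Mcm7 (-1.10 to -1.33), the primase Prim1 (-1.44 ± 0.21), thymidine kinase Tk1 (-1.47 ± 0.21), and the pyrimidine synthesis genes Cad, Umps and Ctps (-1.09 to -1.35). With each array centred 13 fell, and Cad was among those lost. At an adjusted p under 0.05, without the minimum change, 34 of the 38 were lower, where that rule called 19% of all genes in either direction. Mitosis genes fell in 8 of 33 cases (median -0.88), led by the condensin subunit Ncapg2 (-1.13 ± 0.23) and the checkpoint kinases Bub1 (-1.12 ± 0.27) and Bub1b (-1.10 ± 0.13), and 30 of the 33 passed the adjusted p alone. Most of these genes lay just inside or outside the minimum change, so that 3 fell with centred arrays and 7 to 10 when single wells were left out. Mki67 differed by -0.69 ± 0.12 and Cdk1 by -0.87 ± 0.13. Of 34 genes of ribosome biogenesis 4 fell (median -0.55), Dkc1 (-1.61 ± 0.18), Nop58 (-1.25 ± 0.17), Rcl1 (-1.04 ± 0.11) and Grwd1 (-1.01 ± 0.12), of which the last 2 were under the minimum with centred arrays or quantile normalisation.

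Regulators of the G1 phase went both ways, with 4 of 26 higher and 2 lower (median 0.07). Cyclin D2, encoded by Ccnd2, rose from 7.50 and 7.38 to 9.88 and 9.87 (2.43 ± 0.12, adjusted p = 1.9e-18). The Myc antagonist Mxd1 rose by 1.35 ± 0.12, and the stress genes Gadd45g and Gadd45b by 1.25 ± 0.19 and 1.22 ± 0.23. E2f2, which drives S phase genes, changed by -1.32 ± 0.18 and the Cdk4 inhibitor Cdkn2c by -1.15 ± 0.14.

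Markers of other cell types were set beside these results. Of 11 T and NK cell, 5 B and plasma cell, 11 granulocyte, 5 erythroid and 5 mast cell or basophil markers limma called 0, with 1, 0, 0, 0 and 0 higher and 2, 0, 1, 0 and 0 lower at an unadjusted p under 0.05, which 11.3% and 16% of all genes met. Summed intensities were 181 to 182 at 0 h and 191 to 210 at 8 h for T and NK cells, 83.6 to 88.5 and 72.9 to 85.3 for B and plasma cells, and 493 to 509 and 425 to 428 for granulocytes. They were 78.9 to 81 and 77.2 to 86.7 for erythroid cells, and 42.4 to 43.4 and 40.2 to 43.5 for mast cells and basophils. Of 7 dendritic cell markers 1 rose, Bst2 (2.00 ± 0.18), which is also an antiviral effector, and it moved the sum from between 421 and 429 to between 1426 and 1446. Of 9 markers of stroma and endothelium 1 rose, the VEGF receptor Kdr, from 6.46 and 6.28 to 9.86 and 9.91 (3.52 ± 0.16), and it moved that sum from between 295 and 298 to between 1155 and 1174. The endothelial cadherin Cdh5 differed by 0.94 ± 0.20 and was not called, but it was at 1.03 with centred arrays and 1.02 without replicate 2 at 0 h, so that 2 of the 9 rose there. Below the dim level at 0 h were 8 of the 11 T and NK cell markers, 4 of 5 for B cells, 4 of 11 for granulocytes, 5 of 7 for dendritic cells, 3 of 5 for erythroid cells, 3 of 9 for stroma and 5 of 5 for mast cells. Whether such cells had a part in the changes above was not tested.

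The 4 h wells were used to check direction, and they share the 0 h wells with the 8 h comparison. At 4 h 994 genes were called against 0 h (5.28%), 621 higher (3.3%) and 373 lower (1.98%). Of the 427 genes that rose at 8 h, 410 also lay above 0 h at 4 h, with a median change of 1.73, and of the 305 that fell 274 lay below, with a median of -0.55. The 5 largest rises read 7.28 (Iigp1), 5.39 (Lipg), 6.23 (Gbp4), 6.87 (Tnfsf10) and 6.42 (Gbp5) at 4 h. The falls were smaller there, at -0.67 for Uck2, -0.13 for Rrm2 and -1.08 for Cx3cr1. In opposite directions at the 2 times were called 3 genes, singled out after their values were seen. Nol4l changed by 1.13 at 8 h and -2.16 at 4 h, Slco4a1 by 1.73 and -1.02, and D16Ertd472e by -1.65 and 1.07. With the batch as a covariate 750 genes were called at 4 h, 579 higher and 171 lower, or 77.2% higher in place of 62.5%, and batch and time cannot be told apart for these wells.

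The 8 h wells were taken up here as the peak of the response, and the means bear this out only in part. Of the genes that rose, 197 had their highest mean at 8 h, 214 at 4 h, 7 at 2 h and 9 at 24 h. Without the 4 h wells 390 were highest at 8 h. Fallen genes were lowest at 8 h in 249 cases, at 4 h in 26 and at 24 h in 30. The genes were chosen for their difference at 8 h, which favours that time.

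Against 0 h limma called 102 genes at 1 h (0.542%) and 207 at 2 h (1.1%). These counts share the 0 h wells. In the direct comparison of 8 h with 2 h, 517 genes differed (2.75%), 281 higher (1.49%) and 236 lower (1.25%) at 8 h. Vcan, which encodes the matrix proteoglycan versican, read 4.96 and 5.06 at 2 h and 8.38 and 8.37 at 8 h (3.37 ± 0.27, adjusted p = 4.9e-12). Tlr9 read 8.00 and 8.12 at 2 h and 10.90 and 10.92 at 8 h (2.85 ± 0.28). Both were at their 0 h level at 2 h, so their rise came later. Ms4a4c was 3.36 ± 0.56 and Lipg 2.90 ± 0.25 higher at 8 h than at 2 h. Nos2 (2.89 ± 0.86, adjusted p = 0.014) and Ccl5 (2.86 ± 0.78, adjusted p = 0.0061) also passed, but Nos2 did not without either replicate at 2 h or replicate 1 at 8 h (adjusted p = 0.054, 0.089 and 0.11), and Ccl5 not without replicate 2 at 2 h or replicate 1 at 8 h (adjusted p = 0.053 and 0.051).

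Of the 427 genes that rose at 8 h, 208 were called higher at 8 h than at 2 h and 6 lower. Over all genes the shares were 1.49% and 1.25%, and the choice of genes high at 8 h favours the first count. Socs1 stood at 9.50 and 9.52 at 2 h and at 6.64 and 6.66 at 8 h, a difference of -2.86 ± 0.25 (adjusted p = 4.3e-11). Ccl4 read 11.28 and 11.33 at 2 h and 9.43 and 9.40 at 8 h (-1.89 ± 0.19). Irf1 differed from its 2 h level by -1.44 ± 0.12 and Cd69 by -1.41 ± 0.21. Among the falls, Bank1 (-2.24 ± 0.13), Uck2 (-2.11 ± 0.12), Dctd (-2.04 ± 0.19) and Ldlrad3 (-1.97 ± 0.16) were lower at 8 h than at 2 h, by amounts close to their change from 0 h. Of the genes of DNA replication 9 of 38 were lower at 8 h than at 2 h, against 1.25% of all genes.

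By 24 h much of the response was lower than at 8 h. Against 8 h 436 genes differed at 24 h (2.32%), 152 higher (0.808%) and 284 lower (1.51%). Without replicate 1 at 24 h, which leaves the well of the smaller batch alone, 644 were called, 295 higher and 349 lower. Cxcl10 read 6.54 and 6.50 at 24 h, -5.24 ± 0.26 from its 8 h level (adjusted p = 7.9e-18) and no higher than at 0 h. Gbp5 read 5.18 and 5.36 (-4.71 ± 0.41), Lipg 5.84 and 5.77 (-4.55 ± 0.25), and Cd40 6.46 and 6.25 (-4.05 ± 0.25). Tnfsf10 differed by -3.91 ± 0.37 and Gbp3 by -3.86 ± 0.34. Of the antiviral effectors 15 of 32 were lower at 24 h than at 8 h, of the GTPases 7 of 9, and of the class I genes 5 of 18, against 1.51% of all genes. Ifit3 (-0.98), Usp18 (-0.58), Irf7 (-0.05) and Oasl2 (-0.06) were not called lower. Among the falls, Ldlrad3 was 2.42 ± 0.16 higher at 24 h, at 10.16 and 9.48, Abcg3 2.36 ± 0.21, the sialic acid hydroxylase gene Cmah 2.17 ± 0.16, the potassium channel subunit gene Kcne3 1.96 ± 0.23, Rnf180 1.90 ± 0.08 and Bank1 1.82 ± 0.13. Cx3cr1 differed by 0.09 between 8 h and 24 h.

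**Figure D4:**
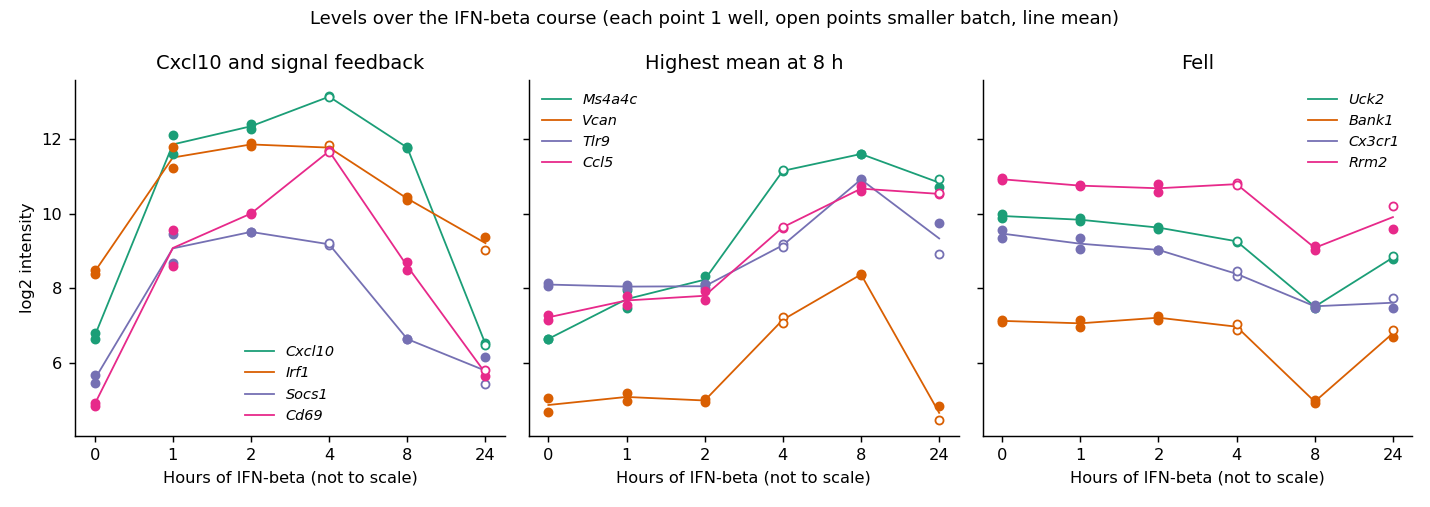
Log2 intensity at 0, 1, 2, 4, 8 and 24 h of IFN-beta (horizontal axis not to scale) for 12 genes, 1 point per well, open points for wells of the smaller batch, lines through the means. Socs1, Irf1, Cd69 and, only slightly, Cxcl10 are higher at 1 h than at 8 h. Ms4a4c, Vcan, Tlr9 and Ccl5 have their highest mean at 8 h, and Uck2, Bank1 and Rrm2 their lowest.

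IFN-gamma, a type II interferon, binds a receptor of its own and acts largely through GAS sites. Against the 0 h wells, which these comparisons share, 506 genes were called at 8 h of IFN-gamma (2.69%). Set against each other at 8 h, the interferons parted 279 genes (1.48%), of which 171 (0.909%) were higher under IFN-beta and 108 (0.574%) lower. IFN-beta gave the higher level in 13 of 32 antiviral effectors and the lower in 1. Genes of the sensor list were higher in 7 of 23 cases, and Schlafens in 4 of 6. Ifit3b read 8.87 and 8.93 with IFN-beta and 5.36 and 5.74 with IFN-gamma (3.35 ± 0.42, adjusted p = 1.7e-07). Ifi214 was 3.59 ± 0.45, Slfn4 2.72 ± 0.46 and Isg20 2.63 ± 0.41 higher. Genes were named for this comparison only where the wells of the stimuli did not overlap. Vcan read 8.38 and 8.37 with IFN-beta and 5.28 and 4.97 with IFN-gamma (3.25 ± 0.27), and Angpt1, the ligand of the receptor Tek, read 5.93 and 5.86 against 2.85 and 2.98 (2.98 ± 0.19). Both were with IFN-gamma near their 0 h levels of 4.89 and 2.91. Kdr was 2.49 log2 units higher with IFN-beta.

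Other risen genes were higher with IFN-gamma. Cxcl9 read 7.33 and 7.30 with IFN-beta and 10.66 and 10.56 with IFN-gamma (-3.29 ± 0.43). Ciita read 6.12 and 6.10 against 9.19 and 9.21 (-3.09 ± 0.21, adjusted p = 6.5e-14), and H2-DMa and H2-Ab1 were lower with IFN-beta by -1.22 ± 0.12 and -1.17 ± 0.22. The actin-binding gene Cnn3 differed by -3.23 ± 0.21, Socs1 by -2.16 ± 0.25, the niacin receptor Hcar2 by -2.08 ± 0.21 and Irf1 by -1.60 ± 0.12. Of the 9 GTPases 3 were lower with IFN-beta, Gbp8 (-1.48), Iigp1 (-1.39) and Gbp4 (-1.23), and the list's median difference was -0.2. The class I genes had a median difference of 0.09, and Nlrc5, Tap2, Psmb9 and Tap1 differed by -0.17, 0.03, 0.05 and 0.06. The ISRE core was in 20.4% of the 113 promoters of risen genes that were higher than with IFN-gamma, in 18.8% of the 16 of those that were lower and in 13.2% of the 287 of those not called different.

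LPS signals through Tlr4, which induces IFN-beta as well as NF-kB targets. Between IFN-beta and LPS 5 ng/ml at 8 h 1362 genes were called (7.24%), of which 748 (3.97%) were higher under IFN-beta and 614 (3.26%) lower. That balance turned with the scaling, to 610 higher and 704 lower with centred arrays and 643 and 659 with quantile normalisation. Against 0 h 2372 genes were called with LPS (12.6%). The antiviral list was nearly level, with 1 of 32 higher, 2 lower and a median difference of -0.15. LPS gave the higher level in 15 of 21 chemokines, 14 of 24 cytokines, 13 of 16 NF-kB feedback genes and 11 of 22 effector enzymes. Nos2 read 7.66 and 7.23 with IFN-beta and 12.22 and 12.24 with LPS (-4.79 ± 0.86, adjusted p = 2.6e-05), Il27 6.83 and 6.63 against 11.24 and 11.20 (-4.49 ± 0.28), and the TNF family ligand Tnfsf15 5.95 and 6.10 against 9.28 and 9.13 (-3.18 ± 0.32). These genes rose with IFN-beta, yet to far lower levels than with LPS. Hcar2 differed by -3.21 ± 0.21, and the feedback inhibitors Socs3 and Cish, not called against 0 h, differed by -5.82 ± 0.29 and -4.57 ± 0.27.

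Under IFN-beta 16 of 38 genes of DNA replication and 17 of 33 of mitosis stood above their LPS level (median differences 0.91 and 1.08). Fbxo5, an inhibitor of the anaphase-promoting complex, read 7.74 and 7.72 with IFN-beta and 4.76 and 5.20 with LPS (2.75 ± 0.22), against 8.87 and 8.68 at 0 h. Rrm2 was 1.36, Mcm2 1.99 and Uhrf1 2.05 log2 units higher than with LPS. The orphan receptor gene Gprc5b read 9.93 and 9.85 against 6.35 and 6.41 (3.52 ± 0.17), and Treml2, a surface receptor, 9.32 and 9.12 against 6.00 and 6.64 (2.90 ± 0.17). The transcription factor gene Sox4 was 3.27 ± 0.22, Serpinb6b, a protease inhibitor, 2.73 ± 0.14 and Fos 2.66 ± 0.23 higher. Against 0 h IFN-beta raised Gprc5b, Treml2, Sox4, Serpinb6b and Fos, while Fbxo5 changed by -1.04 ± 0.22.

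**Figure D5:**
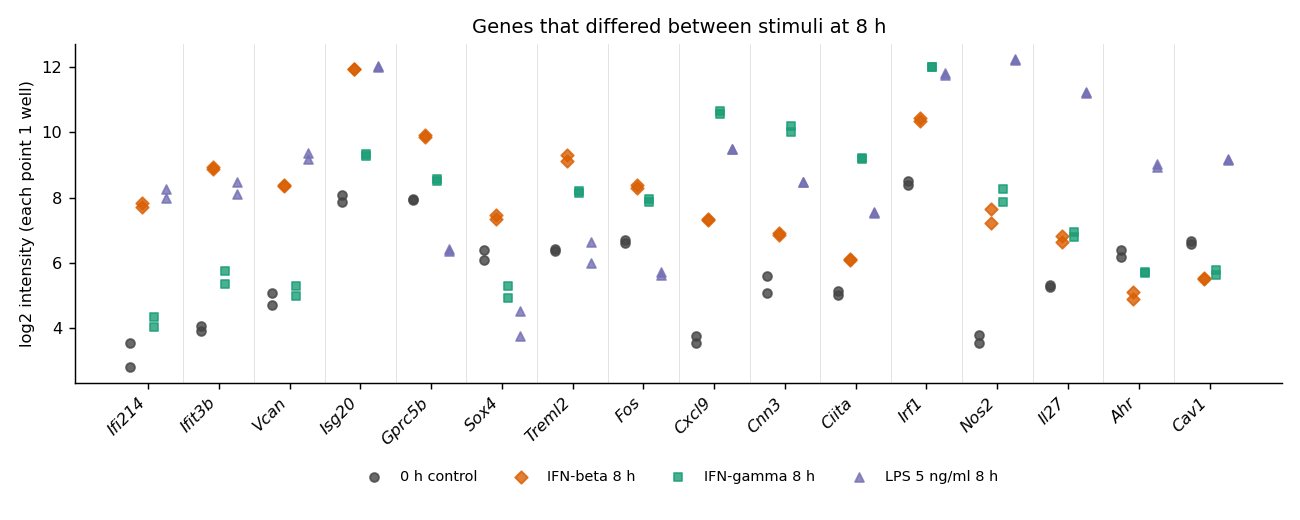
Log2 intensity of each well for 16 genes at 0 h (grey circles) and at 8 h of IFN-beta (orange diamonds), IFN-gamma (green squares) and LPS 5 ng/ml (purple triangles). Vcan and Ifi214 are lower with IFN-gamma than with IFN-beta, Cxcl9 and Ciita are highest with IFN-gamma, and Nos2 and Il27 are highest with LPS.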

How the data were processed

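RNA from each well was hybridised to an Affymetrix array, and the deposited values are linear intensities per probe set, made by the authors with Affymetrix Expression Console 1.1 per the submitters' processing notes. The normalisation method is not given in the sources used here. The 64 arrays hold 35556 probe sets with values from 2.49 to 17782. Of these 21218 have 1 gene symbol in the platform annotation, 1881 several and 12457 none. For each of 18820 genes the probe set with the highest mean was kept (1386 genes had several), and log2 of the intensity was taken with no further normalisation.

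limma 3.58.1 (lmFit and eBayes, in R 4.3.3) was fitted to all arrays with 32 group means and 32 residual degrees of freedom. A gene was called at a Benjamini-Hochberg adjusted p under 0.05 over all 18820 genes and an absolute log2 change of at least 1. On simulated data for the comparison of 8 h with 0 h, 49 of 50 genes changed by 1.5 log2 units were called. Of those changed by 2, by 3 or by -2, 50 of 50 were called each time, and of unchanged genes 0 of 18620. The minimum change leaves unchanged genes little room to be called. No change smaller than 1.5 was simulated, while the median fall was -1.18, so calls near the minimum change were not covered.

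Genes were named by rule: the 15 largest rises and 12 largest falls, up to 4 called members of each list with the largest change, and the 6 largest differences each way against IFN-gamma, LPS, 2 h and 24 h among genes called at 8 h. Gene-model names were left out. The largest rises, falls and differences were taken only from genes whose wells did not overlap between the groups compared. Further list members are named to show values, and were picked with their values known. The comparison, gene lists and rules were chosen with earlier results of these data known. Replicate deviations of same-numbered wells had correlations of -0.1 to 0.1 between 8 h and the other groups. The fit used no pairing, and such values cannot tell whether same-numbered wells share a source. Alternatives covered scaling, dim genes, several probe sets, the arrays fitted, limma's settings, the minimum change, a replicate block, the batch, each well left out and 1 h in place of 0 h. The list counts under these were added after seeing the data.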

Additional observations from a re-analysis of the deposited data

Results flagged for a closer look

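Some genes went opposite ways with IFN-beta and another stimulus at 8 h, by limma's test of the difference, in comparisons that share the 0 h wells. Sox4, a transcription factor gene, changed by 1.16 with IFN-beta and -1.14 with IFN-gamma, a difference of 2.3 ± 0.22 (adjusted p = 3.7e-10), and by -2.11 with LPS, a difference of 3.27 ± 0.22 (adjusted p = 2.3e-15). Ahr, the aryl hydrocarbon receptor, changed by -1.28 with IFN-beta and 2.71 with LPS, a difference of -3.98 ± 0.21 (adjusted p = 3.9e-18). Cav1, which encodes the membrane protein caveolin, changed by -1.1 and 2.54, a difference of -3.65 ± 0.20. Gprc5b changed by 1.95 and -1.57, a difference of 3.52 ± 0.17, and Serpinb6b by 1.16 and -1.58, a difference of 2.73 ± 0.14. Over all genes 1 rose with IFN-beta and fell with IFN-gamma, 5 rose with IFN-beta and fell with LPS, and 8 fell with IFN-beta and rose with LPS.

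Probe sets outside the 18820 genes also responded. Of 12457 without a gene 99 were called at 8 h against 0 h (0.795%), 82 higher and 17 lower, with changes up to 4.67. Of 1881 with several symbols 62 were called (3.3%), 51 higher and 11 lower, with changes up to 5.07. Some list members were not analysed here because their probe sets carry several symbols or none.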

How the results depend on the processing

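The total of called genes in each of the 6 comparisons stayed within 1.5 times the reported one under every alternative run but the call rule. Counts in 1 direction moved more, from 152 to 295 higher at 24 h than at 8 h without replicate 1 at 24 h, and from 373 to 171 lower at 4 h with the batch as a covariate, as did list counts, from 8 to 3 mitosis genes with centred arrays. With no minimum change 3581 genes were called at 8 h against 0 h, 4662 at 4 h, 1581 against IFN-gamma, 4719 against LPS, 3448 against 2 h and 2992 between 24 h and 8 h. Leaving out single wells gave 706 to 791, 984 to 1038, 254 to 293, 1350 to 1462, 509 to 556 and 413 to 644 in the same order, with 644 against 436 without replicate 1 at 24 h. Centring the arrays moved the median change by 0.09 and gave 708 calls at 8 h against 0 h, of which 647 were shared with the reported ones, and quantile normalisation gave 715, of which 684 were shared. With the replicate number as a block the counts were 732, 993, 279, 1362, 517 and 437, and the block changed no call of a named gene.

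Against 1 h in place of 0 h 4 named genes turned direction at 8 h, Cxcl10 (-0.09), Socs1 (-2.42), Irf1 (-1.09) and Cd69 (-0.49), and the cause was not tested. Of the other named genes 20 lost their call and 77 kept their side of the threshold. Calls of named list members lost under a scaling or without a well are given beside the genes, and Grwd1 was also at -0.96 without replicate 1 at 0 h. With 2 wells a group, precision is limited in every comparison, and levels near the dim level give uncertain folds.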

Other observations

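Some genes that rose lay next to each other in the genome, given here as a description of gene order with no test. Of 426 placed genes that rose, 117 (27.5%) had a neighbour among the genes tested that also rose, against 4.31% of all placed genes with a risen neighbour. Of 305 that fell, 20 (6.56%) had a fallen neighbour, against 3.2% of all placed genes. The longest run was the Schlafens Slfn5, Slfn8, Slfn2, Slfn1, Slfn4 and Slfn3 on chromosome 11, with changes of 1.13 to 4.23. Others were 5 Ifit genes on chromosome 19 (1.32 to 4.91), Gbp5, Gbp7, Gbp3 and Gbp2 on chromosome 3 (4.24 to 5.46), and Gbp8, Gbp9 and Gbp4 on chromosome 5 (2.41 to 5.64). On chromosome 17 Psmb9, Tap1, Psmb8 and Tap2, of class I antigen processing, rose by 1.26 to 2.05. On chromosome 14 Phf11a, Phf11d, Phf11c and Setdb2 rose by 1.63 to 3.71. Most of these runs are gene families, whose probes may share signal.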
